A study of Mus musculus with 22 samples.

Results

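The genes described here are the mouse histone deacetylases of classes I, II and IV: Hdac1, Hdac2, Hdac3 and Hdac8 (class I), Hdac4, Hdac5, Hdac7 and Hdac9 (class IIa), Hdac6 (class IIb) and Hdac11 (class IV). They were taken from the expression table by their gene names, and all 10 were found among its 18487 genes. RNA was measured in 22 libraries of E14 cells, an established line of mouse embryonic stem cells, with 2 libraries for each of 11 groups. In 10 groups the cells had been treated with a compound, labelled Bromosporine, Chaetocin, CPTH2, DZNep, Garcinol, IOX1, MS023, OICR, UNC0379 or Valproate, and the remaining group was labelled NC. The labels give no further treatment or genetic change in any group, no dose and no exposure time, and they do not spell out NC, so that compounds could not be compared at matched doses. All libraries come from 1 cell line, and the labels do not say whether the 2 libraries of a group came from separate cultures, so p-values measure the spread between these libraries, which may be technical.

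Histone deacetylases remove acetyl groups from lysines of histones and other proteins, which reverses the work of acetyltransferases and is mostly associated with lower transcription. Hdac1 and Hdac2 are the catalytic subunits of the Sin3, NuRD and CoREST corepressor complexes, while Hdac3 works in the NCoR complex. Class IIa enzymes have little catalytic activity of their own, shuttle between cytoplasm and nucleus, and bind MEF2 transcription factors. Hdac6 is largely cytoplasmic and deacetylates tubulin, and Hdac11 is the single class IV enzyme. In embryonic stem cells Hdac1 and Hdac2 are known as the main nuclear deacetylases. Valproate is an inhibitor of deacetylases, Garcinol and CPTH2 inhibit acetyltransferases, Bromosporine blocks the bromodomains that read acetyl-lysine, and DZNep (3-deazaneplanocin A) inhibits S-adenosylhomocysteine hydrolase and with it many methyltransferases. Chaetocin and UNC0379 are used as inhibitors of lysine methyltransferases, MS023 of arginine methyltransferases and IOX1 of oxygenases that include histone demethylases.

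The values are normalized by the authors, rounded and set to a common distribution (median 409 in every library), so the depth that each library reached cannot be read from them and no counting interval can be given. A depth is stated in the methods once, for all libraries together. Summed markers of embryonic stem cells (12 of 12 listed genes present, none at 0) lay between 182710 and 290407 in every library. Markers of other lineages were low beside them, with summed values of 27 to 1881 for fibroblasts (Dcn was listed at 0 in all 22 libraries), 193 to 654 for endoderm, 272 to 629 for mesoderm and 948 to 2647 for neuroectoderm. In bulk RNA, fewer cells of a type and less RNA per cell cannot be told apart.

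The members lie on 9 chromosomes of the mm10 build and span very different lengths of genome in the GENCODE M21 annotation. Hdac2 (ENSMUSG00000019777, chromosome 10, 36974544 to 37001889, plus strand) and Hdac11 (ENSMUSG00000034245, chromosome 6, 91156665 to 91174692, plus strand) are compact genes of 27.3 and 18.0 kb. Hdac7 (ENSMUSG00000022475, chromosome 15, 97792664 to 97844502, minus strand) covers 51.8 kb and overlaps Slc48a1 on the other strand. Hdac9 (ENSMUSG00000004698, chromosome 12, 34047580 to 34917095, minus strand) is the longest at 869.5 kb, followed by Hdac4 (ENSMUSG00000026313, chromosome 1, 91928779 to 92195699, minus strand) at 266.9 kb. Hdac8 (ENSMUSG00000067567, 102284639 to 102505359) takes 220.7 kb and Hdac6 (ENSMUSG00000031161, 7930120 to 7947889) 17.8 kb of the minus strand of the X chromosome. Hdac5 (ENSMUSG00000008855, chromosome 11, 102194432 to 102230166, minus strand) covers 35.7 kb and Hdac3 (ENSMUSG00000024454) 19.2 kb. Hdac1 (ENSMUSG00000028800, chromosome 4, 129516104 to 129542713, minus strand) shares 60.7% of the 31-base words of its transcripts with its copy Gm10093, so part of its reads could have been assigned to either gene. Hdac11 shares 24.1% of such words with other genes, mostly with Gm44002 (21.5%), which lies across it on the opposite strand, and whether counting used strand is not stated in the sources used here. For the other 8 members this share was at most 2.01%.

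The promoters of Hdac2, Hdac7 and Hdac11 are shown because these genes had the largest differences after DZNep among the members with no library at 0. The windows run from 250 bases before the start of transcription to 50 bases after it (RefSeq, GRCm38.p6), read 5′ to 3′ on the strand of the gene, and capitals mark the GC box GGGCGG and the CCAAT box, each searched on both strands.
Hdac2, chr10:36974294-36974593, plus strand: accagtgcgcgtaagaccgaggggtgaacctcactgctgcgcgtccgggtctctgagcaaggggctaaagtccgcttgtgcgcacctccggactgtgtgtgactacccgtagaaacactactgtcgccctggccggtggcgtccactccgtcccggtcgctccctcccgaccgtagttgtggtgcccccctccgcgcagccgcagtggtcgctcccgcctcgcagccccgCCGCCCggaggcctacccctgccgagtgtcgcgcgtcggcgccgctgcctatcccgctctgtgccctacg
Hdac7, chr15:97831446-97831745, minus strand, the first of 4 windows: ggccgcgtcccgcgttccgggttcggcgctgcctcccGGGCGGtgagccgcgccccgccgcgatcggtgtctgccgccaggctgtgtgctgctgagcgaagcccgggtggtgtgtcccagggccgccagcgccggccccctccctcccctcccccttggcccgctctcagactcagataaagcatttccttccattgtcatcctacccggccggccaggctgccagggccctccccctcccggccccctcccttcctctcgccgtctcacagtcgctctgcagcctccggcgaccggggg
Hdac11, chr6:91156565-91156864, plus strand: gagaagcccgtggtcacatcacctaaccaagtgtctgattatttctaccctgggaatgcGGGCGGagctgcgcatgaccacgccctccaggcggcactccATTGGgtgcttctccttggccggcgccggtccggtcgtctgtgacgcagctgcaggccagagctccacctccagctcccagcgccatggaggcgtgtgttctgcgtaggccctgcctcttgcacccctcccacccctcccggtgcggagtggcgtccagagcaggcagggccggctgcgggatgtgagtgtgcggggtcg
All 3 windows were rich in CpG, with 36 in Hdac2, 31 in Hdac7 and 22 in Hdac11 against a median of 7 over all 32851 promoter windows of the table. Each held 1 GC box, a motif found in 35.7% of all windows, and the Hdac11 window held 1 CCAAT box, found in 37.4%. The E-box CACGTG and the core motif of NRF1, present in 7.15% and 0.971% of all windows, did not occur in these 3. Windows 2, 3 and 4 of Hdac7, not shown, held 6, 35 and 5 CpG and no GC box. In all, 8 of 10 members had a window, 12 windows together. The Hdac9 windows were the poorest in CpG among them, with 0 and 3.

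Compared per kilobase of the longest coding transcript, the class I genes Hdac1 and Hdac2 led the family in the NC libraries. Hdac1 had 4269 ± 355 normalized units per kilobase (SD, n = 2), followed by Hdac2 with 1778 ± 40.5, Hdac3 with 1429 ± 178 and the tubulin deacetylase Hdac6 with 1151 ± 276, and the ranges of Hdac3 (1303 to 1555) and Hdac6 (956.3 to 1347) overlapped. Hdac5 was the leading class IIa gene at 607.2 ± 64.4 per kilobase. Hdac4 (185.3 ± 13.8), Hdac8 (173.3 ± 13.5) and Hdac7 (138.9 ± 49.5) lay close together, and neighbours among them overlapped. Hdac11 had 45.8 ± 6.66 per kilobase, and Hdac9 was barely present at 2.96 ± 1.34. The order was identical when the median length of coding transcripts was used, but the closeness of Hdac4 to Hdac8 and Hdac7 was not kept. By that length the NC means were 615.8 for Hdac4, 173.3 for Hdac8 and 148.9 for Hdac7.

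**Figure D1:**
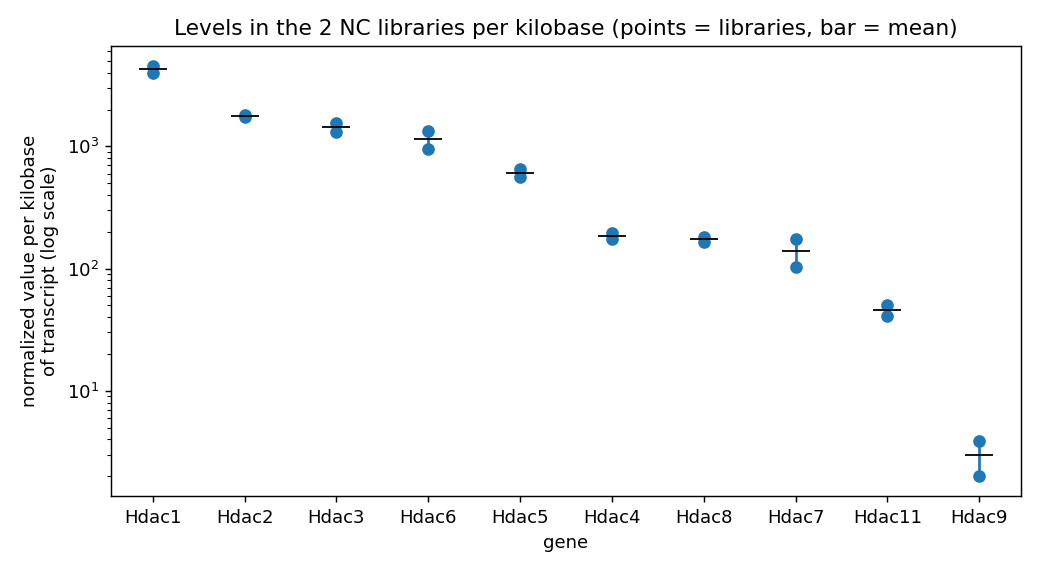
Level of each deacetylase transcript in the 2 NC libraries, in normalized units per kilobase of transcript (y axis, log scale), ordered from high to low along the x axis, with points for libraries and bars for their mean. By the longest coding transcript, Hdac1 leads at 4269 and Hdac9 comes last at 2.96, while Hdac3 overlaps with Hdac6, Hdac4 with Hdac8 and Hdac8 with Hdac7.

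In single libraries, values per gene from here on are not divided by length. The plot of all 22 libraries shows that the DZNep points stood apart for 5 of the 10 genes. Both DZNep libraries lay above the other 20 for Hdac2 and Hdac3 and below them for Hdac1, Hdac7 and Hdac11. Over all tested genes, 17.4% had both DZNep libraries outside the range of the other 20. In the other 10 groups no member had both libraries outside, where the share of all genes was 9.65% for Valproate, 5.99% for Bromosporine, 4.87% for MS023, 1.83% for IOX1 and at most 0.805% for the remaining 6.

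**Figure D2:**
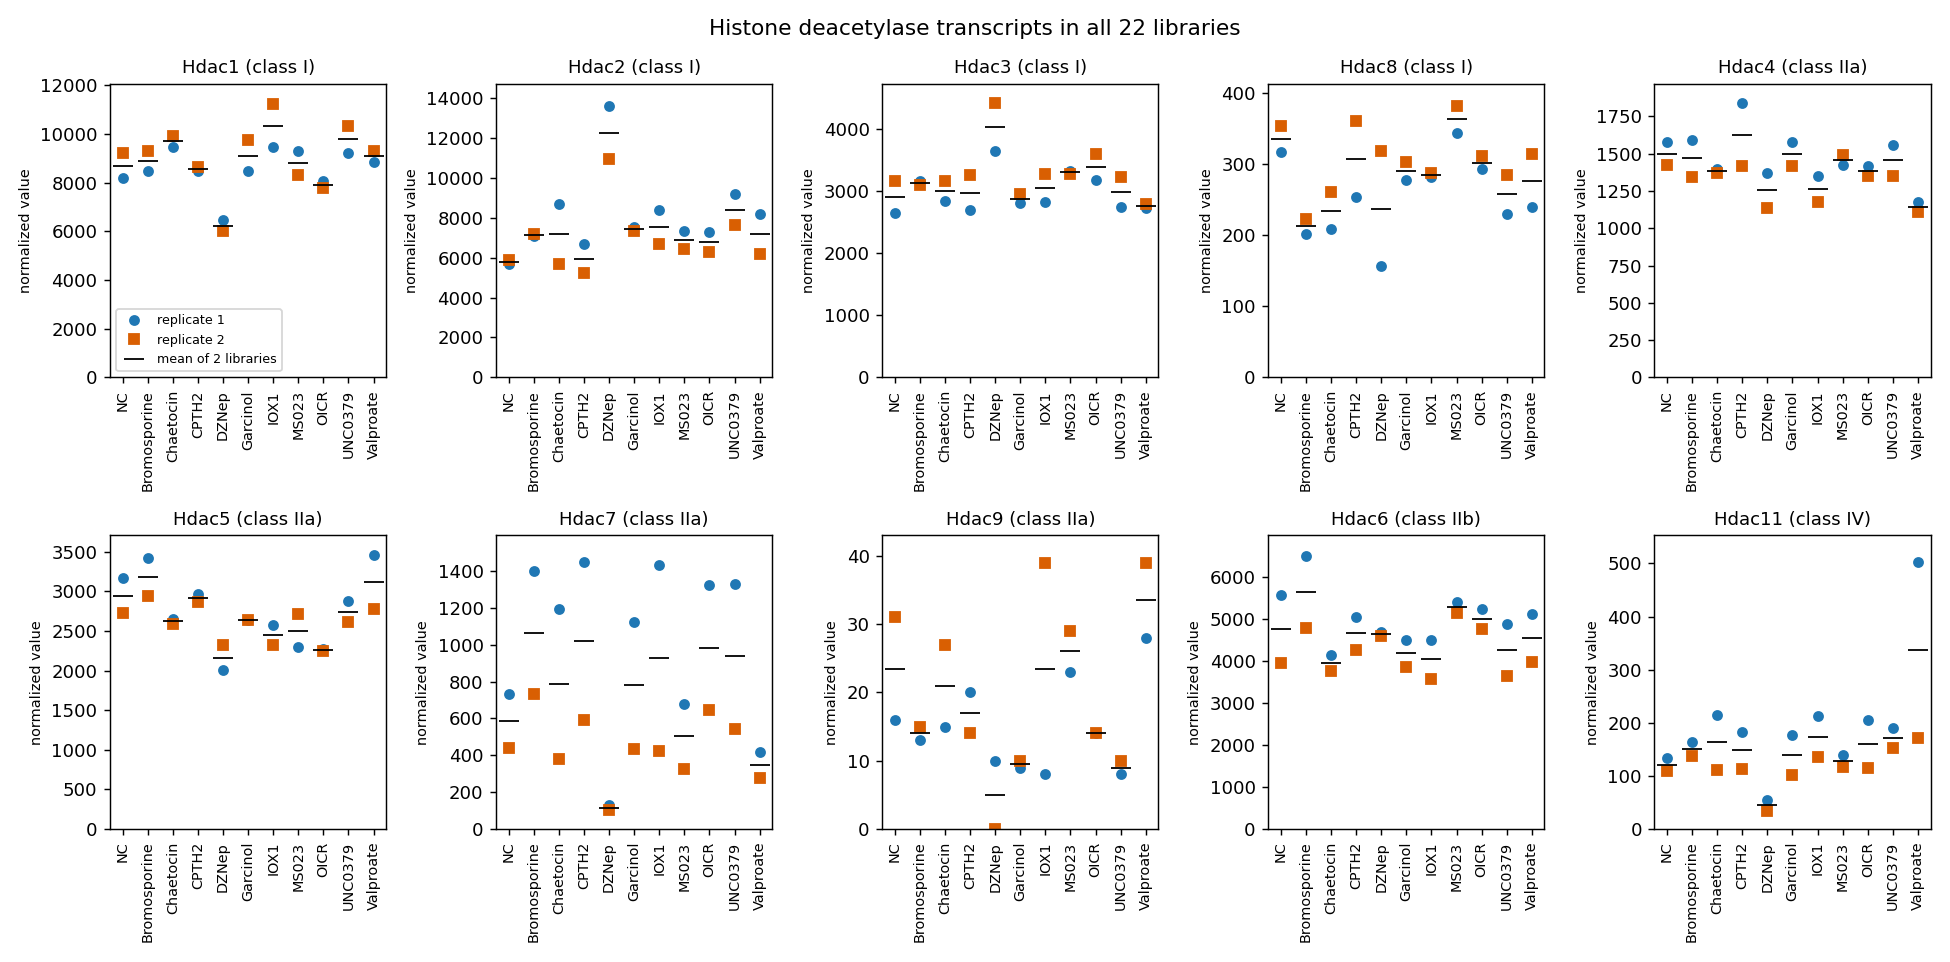
Normalized value (y axes, linear, from 0) of the 10 deacetylase genes in 11 groups (x axes), with circles for replicate 1, squares for replicate 2 and a bar for the mean of 2 libraries. DZNep stands alone at the top for Hdac2 (10924 and 13597) and Hdac3 (3644 and 4414) and at the bottom for Hdac1, Hdac7 and Hdac11.

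The comparison of DZNep with NC asks which deacetylase transcripts differed in cells given an inhibitor of S-adenosylhomocysteine hydrolase. Of the 10 members, 7 passed the test (limma, adjusted p under 0.05): Hdac2 and Hdac3 rose, and Hdac1, Hdac5, Hdac7, Hdac9 and Hdac11 fell. Over all 17275 tested genes 23.6% passed, 10.7% with a higher and 12.8% with a lower value. A change of more than 2-fold was reached by 4 members (Hdac2 up, Hdac7, Hdac9 and Hdac11 down), against 11.4% of all genes. For Hdac2 this depended on the reference. Its group mean was lowest in NC, and DZNep was higher than the other 9 compounds by 0.54 to 1.04 log2 units. The Hdac9 call rests on DZNep replicate 2, listed at 0. Between the libraries numbered 1 its log2 change was -0.63, and it did not pass with a pseudocount of 10 (adjusted p = 0.0579, limma). The median log2 change of the 10 members was -0.46, beside -0.04 over all tested genes. These are changes on the log2(value + 1) scale, which understates those of low genes.

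Among class I genes, Hdac2 gained and its close paralog Hdac1 lost. Hdac2 was measured at 5685 and 5871 in NC and at 13597 and 10924 after DZNep. In the 18 libraries of the other compounds it ran from 5224 in CPTH2 replicate 2 to 9182 in UNC0379 replicate 1. The 2 DZNep libraries thus lay above every other library, and the change was 1.08 ± 0.21 log2 units (SE), or 2.11-fold (95% confidence interval 0.63 to 1.52 on the log2 scale, adjusted p = 0.00216, limma). It measured 1.26 between the libraries numbered 1 and 0.90 between those numbered 2, and it passed in all 4 fits that left out 1 of the 4 libraries.

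Hdac1 moved the other way, from 8188 and 9211 in NC to 6477 and 5996 after DZNep. Its values in the other 18 libraries began at 7776 in OICR replicate 2 and ended at 11228 in IOX1 replicate 2, so that DZNep was lowest without overlap. The log2 change was -0.48 ± 0.11 (SE, adjusted p = 0.00699, limma), a 1.39-fold lower value. Without NC replicate 2 the change was -0.39 and no longer passed (adjusted p = 0.0613). Gm10093, the copy that shares sequence with Hdac1, had 1454 and 1737 in NC and 1282 and 850 after DZNep. The sum of both genes was 9642 and 10948 in NC, 7759 and 6846 after DZNep, and at least 9048 in the other 18 libraries, so the sum also stood apart.

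Within a library, the ratio of Hdac1 to Hdac2 was lower after DZNep than in any other group. On deposited values, not divided by length, it was 0.476 and 0.549 in the DZNep libraries, 1.44 and 1.57 in NC, and 1 to 1.75 over the 20 libraries other than DZNep. The lowest of those 20 was UNC0379 replicate 1, so DZNep did not overlap with them. Hdac2 made up 33.8% and 31.6% of the class I sum in NC and 57% and 50.5% after DZNep. On values per kilobase the mean shares were 23.3% and 42.1%. On deposited values the class I sum was 16837 and 18595 in NC and 23874 and 21652 after DZNep. The other 20 libraries ran from 16837 to 21480, below both DZNep libraries. Per kilobase, the means of Hdac1, Hdac2, Hdac3 and Hdac8 were 3060, 3772, 1983 and 122.4 after DZNep. With IOX1 they were 5074, 2317, 1501 and 147.0, so DZNep did not have the highest class I mean per kilobase. With 2 libraries against 2, an exact permutation test cannot fall below 0.05, and the ratio is given as a description.

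**Figure D3:**
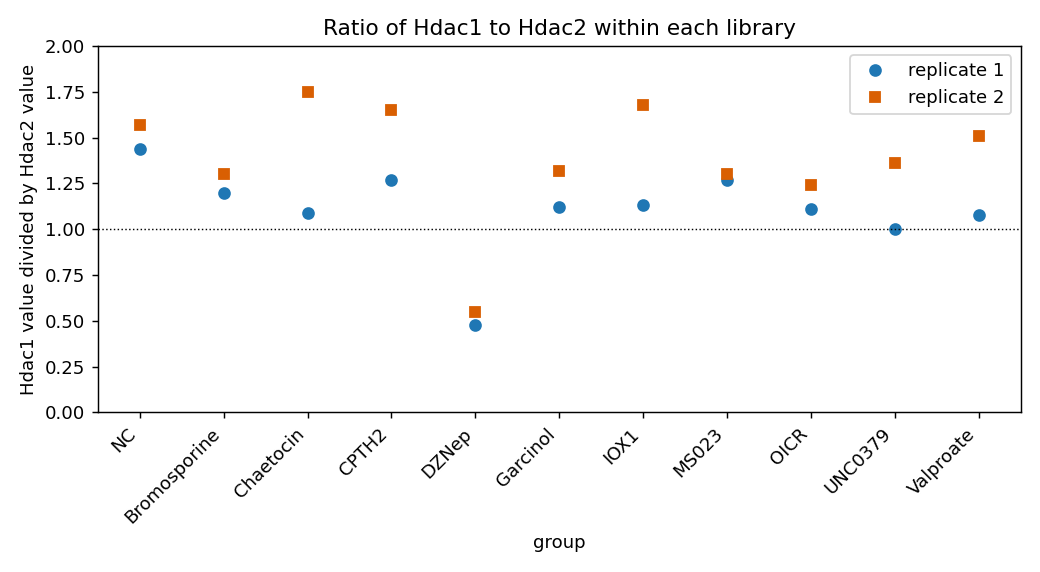
Ratio of the Hdac1 value to the Hdac2 value within each library (y axis, no unit, linear) for 11 groups (x axis), with circles for replicate 1, squares for replicate 2 and a dotted line at 1. The DZNep libraries lie at 0.476 and 0.549, and the other 20 libraries lie between 1 and 1.75.

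Hdac3, the catalytic subunit of NCoR, rose from 2647 and 3159 in NC to 3644 and 4414 after DZNep, a log2 change of 0.47 ± 0.13 (SE, adjusted p = 0.0215, limma). The highest of the other 20 libraries was OICR replicate 2 at 3587, just under the lower DZNep library. Hdac3 did not pass without NC replicate 1 (0.34, adjusted p = 0.205) or without DZNep replicate 2 (0.33, adjusted p = 0.148). Hdac8, a class I enzyme that deacetylates cohesin, had 317 and 354 in NC and 156 and 318 after DZNep. The 2 DZNep libraries lay farther apart than the group means (335.5 in NC and 237 after DZNep), and the change of -0.59 did not pass (95% confidence interval -1.18 to 0.01, adjusted p = 0.145, limma).

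In class IIa, DZNep went with lower means of all 4 genes, of which 3 passed, where 12.8% of all genes passed with a lower value. Hdac7 had 735 and 439 in NC and 129 and 103 after DZNep. In the other 18 libraries it ranged from 278 in Valproate replicate 2 to 1449 in CPTH2 replicate 1, so the DZNep pair lay below every other library. The fall measured 4.89-fold, a log2 change of -2.29 ± 0.76 (SE, adjusted p = 0.0421, limma), with -2.50 between libraries numbered 1 and -2.08 between those numbered 2. The 2 libraries of most groups lay far apart for this gene, with a pooled SD of 0.83 log2 units, and replicate 1 was the higher in all 11 groups. Leaving out any 1 of the 4 libraries left changes of -1.92 to -2.66 that did not pass (adjusted p 0.0694 to 0.237), where the lone library was taken to vary like the other groups. Nor did Hdac7 pass with no filter on low values (adjusted p = 0.0577).

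Hdac5 had 3167 and 2725 in NC and 2004 and 2317 after DZNep, a log2 change of -0.45 ± 0.13 (SE, adjusted p = 0.0228, limma). The DZNep range was not separate from that of the other compounds, as both OICR libraries (2276 and 2246) and MS023 replicate 1 (2299) fell into it. Without NC replicate 1 or DZNep replicate 1 the change was -0.34 and did not pass (adjusted p = 0.201 and 0.145). Hdac9 was near the lower end of detection throughout, with 0 to 39 over the 22 libraries. It was 16 and 31 in NC, 10 in DZNep replicate 1 and listed at 0 in DZNep replicate 2, and although it passed (adjusted p = 0.0346, limma), no fold is given against a library at 0. Hdac9 did not pass with a pseudocount of 10 (adjusted p = 0.0579), without DZNep replicate 2 (adjusted p = 0.321), without NC replicate 1 (adjusted p = 0.0794) or without NC replicate 2 (adjusted p = 0.165). Hdac4 had 1580 and 1422 in NC and 1373 and 1134 after DZNep, with a change of -0.26 that did not pass (95% confidence interval -0.57 to 0.04, adjusted p = 0.197).

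Hdac6 gave the smallest difference of the family. The NC libraries had 5578 and 3961 and the DZNep libraries 4690 and 4605, which lie between them. The log2 change was -0.02, with a 95% confidence interval of -0.46 to 0.42 (adjusted p = 0.972, limma). A change of up to about that size in either direction is therefore compatible with these libraries. Hdac11, in contrast, had 134 and 109 in NC and 55 and 34 after DZNep, and the other 18 libraries began at 101 in Garcinol replicate 2 and reached 503 in Valproate replicate 1. It fell 2.75-fold, a log2 change of -1.46 ± 0.50 (SE, adjusted p = 0.0493, limma), just inside the threshold. It did not pass with a pseudocount of 10 (adjusted p = 0.063), with no filter or with median-ratio rescaling (adjusted p = 0.0631 in both), or in any fit without 1 of the 4 libraries (-1.12 to -1.80, adjusted p 0.0584 to 0.225). Gm44002, which overlaps Hdac11 on the opposite strand, had 34 and 11 in NC, and both DZNep libraries list it at 0.

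Because 2 NC libraries carry the comparison, DZNep was also set against each of the other 9 compounds, a check chosen after seeing the data. All these comparisons share the DZNep libraries. Hdac11 passed in 9 of 9, Hdac1 and Hdac2 in 8, Hdac7 in 7, Hdac3 in 6, and Hdac5 and Hdac9 in 3, and every one of these differences had the direction seen against NC. Hdac2 missed the threshold against UNC0379 (0.54, adjusted p = 0.0826), Hdac1 against OICR (-0.35, adjusted p = 0.0502), and Hdac7 against MS023 (adjusted p = 0.0712) and Valproate (adjusted p = 0.163). Against the mean of the other 10 groups, the same 7 members passed, where 34% of all genes did. In that comparison Hdac2 was higher by 0.81 ± 0.15 (SE, adjusted p = 0.00123), Hdac1 was lower with -0.54 ± 0.08 (adjusted p = 2.71e-04), and Hdac7 (-2.57 ± 0.56, adjusted p = 0.0032) and Hdac11 (-1.83 ± 0.37, adjusted p = 0.00197) were lower as well. Hdac4, Hdac6 and Hdac8 passed in 0 of the 9. Over all genes, 16% (against OICR) to 27.9% (against Bromosporine) passed in these 9 comparisons, in which 3 to 6 of the 10 members did.

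Markers of cell types also differed in the DZNep libraries, and their counts are read beside the 23.6% of all genes that passed. Summed embryonic stem cell markers were 281161 to 290407 against 219152 to 219220 in NC, and 3 of 12 passed (Zfp42 and Utf1 higher, Fgf4 lower). Fibroblast markers summed to 1613 to 1881 against 528 to 1397 in NC (2 of 7 tested higher, Col1a1 and Thy1, with Dcn at 0), and mesoderm markers to 486 to 629 against 306 to 335 (2 of 5 tested higher, Eomes and Kdr). Neuroectoderm markers summed to 948 to 1157 against 2324 to 2583 (2 of 6 lower, Sox1 and Nes), and endoderm markers to 347 to 654 against 345 to 432 (Dab2 higher and Gata4 lower of 4 tested, with Foxa2 and Afp not used here). The part of these differences in the deacetylase values was not tested.

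Valproate, the deacetylase inhibitor of the series, gave no member that passed against NC, while 10.3% of all genes did. At an unadjusted p under 0.05 there were 2, Hdac4 and Hdac11. Hdac11 had 503 and 171 with Valproate against 134 and 109 in NC, which was the highest value within each replicate number. The libraries of the pair differed widely from each other, and the log2 change of 1.27 ± 0.50 (SE) did not pass (95% confidence interval 0.20 to 2.35, adjusted p = 0.131, limma). Hdac4 had 1179 and 1112 against 1580 and 1422 in NC, the lowest within each replicate number, with a change of -0.39 ± 0.14 (adjusted p = 0.109). Without Valproate replicate 2, 1 member passed. Hdac7 had 418 and 278 with Valproate, lower than in every group other than DZNep within each number, with a change of -0.73 and a 95% confidence interval of -2.36 to 0.89. Its class I targets had changes of 0.06 for Hdac1 (95% confidence interval -0.18 to 0.30), 0.30 for Hdac2 (-0.15 to 0.74), -0.07 for Hdac3 (-0.36 to 0.22) and -0.29 for Hdac8 (-0.88 to 0.30).

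Valproate was also set against the 2 acetyltransferase inhibitors CPTH2 and Garcinol, which act on the opposite side of the acetylation balance. It differed in 1 member, where 17.5% of all genes passed. Against NC, CPTH2 and Garcinol each gave 1 gene of 17275 that passed, so these libraries were themselves close to NC. Hdac4 was measured at 1179 and 1112 with Valproate, 1840 and 1415 with CPTH2 and 1580 and 1419 with Garcinol. The Valproate libraries lay below all 4 others, a log2 difference of -0.44 ± 0.12 (SE, adjusted p = 0.0256, limma). It did not pass without CPTH2 replicate 1 (-0.35, adjusted p = 0.0773), Garcinol replicate 1 (-0.40, adjusted p = 0.0767), Valproate replicate 1 (-0.48, adjusted p = 0.0891) or Valproate replicate 2 (-0.40, adjusted p = 0.147). With median-ratio rescaling it was -0.41 and did not pass (adjusted p = 0.0555). Hdac11 had 182 and 114 with CPTH2 and 178 and 101 with Garcinol, and its difference of 1.07 ± 0.43 did not pass (adjusted p = 0.11). Hdac7 had 1449 and 591 with CPTH2 and 1125 and 433 with Garcinol, a difference of -1.23 that did not pass either (adjusted p = 0.226). Marker sums differed too. Fibroblast markers summed to 1441 to 1559 with Valproate, 43 to 813 with CPTH2 and 56 to 1137 with Garcinol (Thy1 and Lum higher of 7 tested, Dcn at 0), and mesoderm markers to 414 to 534, 272 to 300 and 288 to 335 (Kdr higher of 5). Endoderm markers summed to 329 to 476, 300 to 356 and 204 to 298 (Dab2 higher of 4), neuroectoderm markers to 2303 to 2352, 2098 to 2308 and 1853 to 2087 (Map2 higher, Sox1 and Zic1 lower of 6), and stem cell markers to 237197 to 244486, 213325 to 214118 and 221810 to 229725 (Utf1 higher of 12). Their part in the Hdac4 value was not tested.

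**Figure D4:**
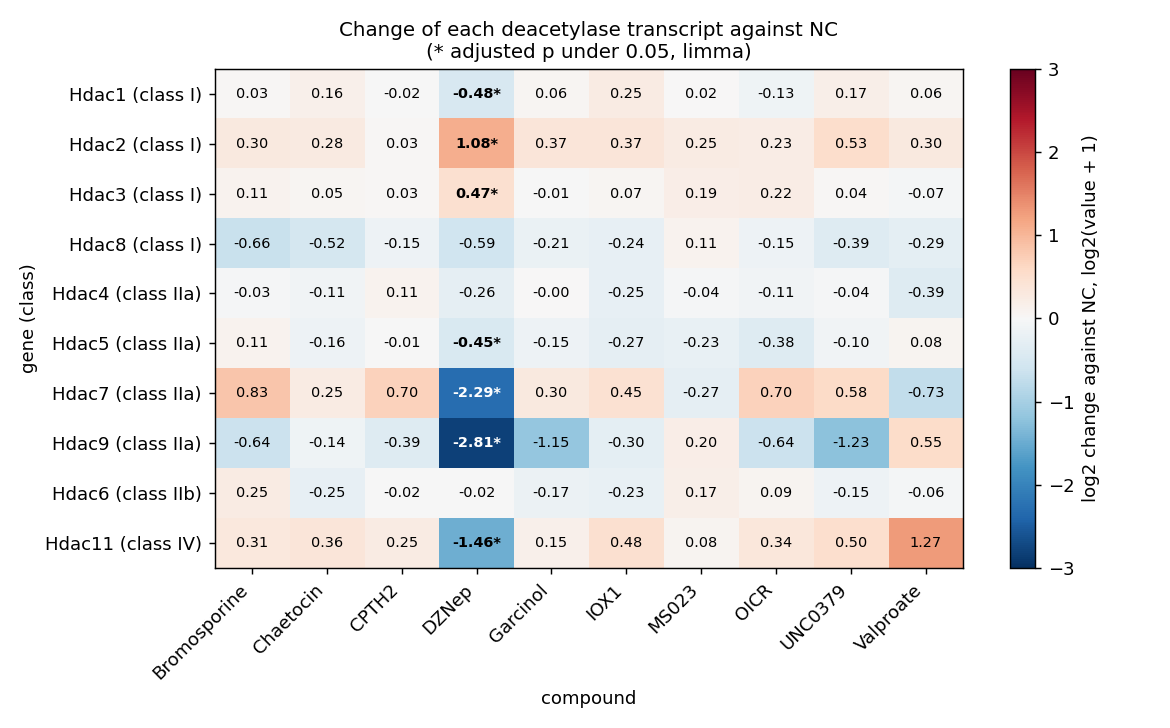
Log2 change of each deacetylase gene (rows) against NC for 10 compounds (columns), on the log2(value + 1) scale with colours from -3 (blue) to 3 (red), and asterisks for an adjusted p under 0.05 (limma). Asterisks stand in the DZNep column alone, at 7 of 10 genes, and the largest value outside it is the 1.27 of Hdac11 with Valproate.

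Across the 9 compounds other than DZNep, 0 of 90 pairs of gene and compound passed in limma, and 6 had an unadjusted p under 0.05. The lowest adjusted p was the 0.109 of Hdac4 with Valproate. Over all tested genes the share that passed was 5.4% for Bromosporine, 2.21% for MS023, 0.637% for OICR, 0.127% for IOX1, 0.0174% for Chaetocin, 0.00579% for each of CPTH2 and Garcinol and 0% for UNC0379. Besides Hdac4 and Hdac11 with Valproate, the pairs at an unadjusted p under 0.05 were Hdac8 with Bromosporine, Hdac5 with OICR, Hdac1 with IOX1 and Hdac2 with UNC0379.

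Hdac8 had 202 and 223 with Bromosporine against 317 and 354 in NC, a change of -0.66 ± 0.27 (SE, adjusted p = 0.205, limma). Hdac5 had 2276 and 2246 with OICR, the 2 values lying close together and below both NC libraries, with a change of -0.38 ± 0.13 (adjusted p = 0.262). Hdac1 had 9452 and 11228 with IOX1, above both NC libraries, with a change of 0.25 ± 0.11 (adjusted p = 0.386). Hdac2 had 9182 and 7625 with UNC0379, also above both NC libraries, with a change of 0.53 ± 0.21 (adjusted p = 0.791). None of these 4 differences passed.

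Ordered by group means, neighbouring groups overlapped for most members. Hdac2 went from 12260 with DZNep and 8403.5 with UNC0379 down to 5953.5 with CPTH2 and 5778 in NC, and 9 of 10 neighbouring pairs overlapped, the exception being DZNep and UNC0379. Hdac1 went from 10340 with IOX1 to 6236.5 with DZNep, and the pairs that did not overlap were CPTH2 with OICR and OICR with DZNep. Hdac7 went from 1065 with Bromosporine to 348 with Valproate and 116 with DZNep, apart at this last step. Hdac11 went from 337 with Valproate to 121.5 in NC and 44.5 with DZNep, again apart at the last step alone. Hdac3 ran from 4029 with DZNep to 2754.5 with Valproate with 3 gaps, Hdac5 from 3183 with Bromosporine to 2160.5 with DZNep with 1 gap (IOX1 and OICR), and Hdac9 from 33.5 with Valproate to 5 with DZNep with 1 gap (OICR and Garcinol).

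The remaining 3 genes had overlapping neighbours at every step. Hdac4 lay between 1627.5 with CPTH2 and 1145.5 with Valproate, Hdac6 between 5648.5 with Bromosporine and 3953.5 with Chaetocin, and Hdac8 between 363 with MS023 and 212.5 with Bromosporine. Asked in 1 test whether a gene differed among the 11 groups, 3 members passed (F test in limma), where 29.7% of all genes did. They were Hdac1 (adjusted p = 0.0108), Hdac2 (adjusted p = 0.0424) and Hdac5 (adjusted p = 0.0424). Hdac11 (adjusted p = 0.064) and Hdac7 (adjusted p = 0.0961) missed the threshold. When 1 library was left out, 1 to 4 members passed, and the count was 1 without NC, Bromosporine or MS023 replicate 1, without CPTH2 replicate 2, or without either library of Garcinol, OICR or UNC0379.

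For some members the replicate number separated libraries more than most compounds did. In a fit with group and number, 7 of 10 members differed between numbers 1 and 2 (limma), while 52.6% of all genes did. Hdac7 was higher in number 1 in 11 of 11 groups, by 2.14-fold (-1.10 ± 0.12 log2 units, SE, for number 2 minus number 1, adjusted p = 2.62e-05). Its mean over 11 libraries was 1019.8 in number 1 and 444.55 in number 2. Hdac11 was higher in number 1 in 11 of 11 groups too, by 1.58-fold (-0.66 ± 0.11, adjusted p = 3.79e-04), and so was Hdac6 (-0.26 ± 0.05, adjusted p = 5.22e-04). Hdac2 (-0.24, 9 of 11 groups) and Hdac4 (-0.16, 10 of 11 groups) were also higher in number 1, while Hdac8 (0.30, 11 of 11 groups) and Hdac3 (0.15, 9 of 11 groups) were higher in number 2. Hdac1, Hdac5 and Hdac9 did not pass (adjusted p 0.176 to 0.811). The labels do not say what the number stands for.

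**Figure D5:**
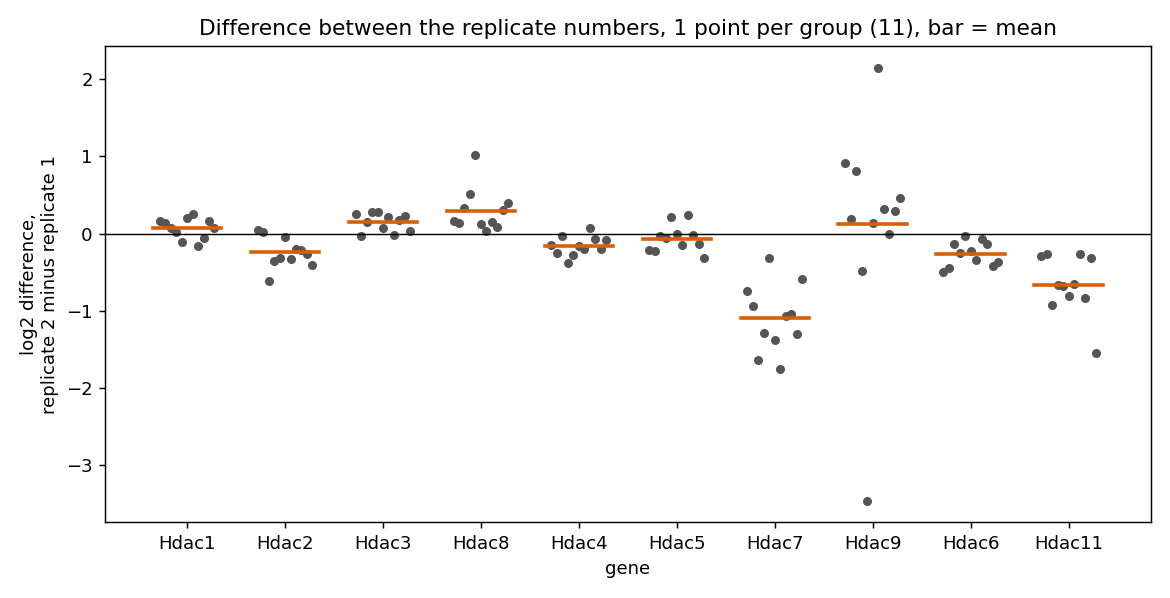
Difference between replicate 2 and replicate 1 within each group (y axis, log2 units) for the 10 deacetylase genes (x axis), 1 point for each of 11 groups and a bar at the mean. All points of Hdac7, Hdac6 and Hdac11 lie below 0 and all points of Hdac8 lie above it, with the Hdac7 mean at -1.10.

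For the 3 members that passed the F test, the genes with the most similar pattern over the 11 groups were sought among 14311 genes, by the lower of the Pearson correlations within numbers 1 and 2. Hdac1 was most like Anp32e (0.92), Sdhb (0.89) and Dppa5a (0.88). Hdac2 was most like Zbed5 (0.93), Ckap2 (0.91) and Vkorc1 (0.88). Hdac5 was most like Rcn3 (0.85) and Slc9a5 (0.85). These are descriptions over 11 points that share libraries, and DZNep is far from the rest in most of them. Between members, Hdac1 and Hdac2 had correlations of -0.45 and -0.52 in numbers 1 and 2 over 11 groups, and of 0.74 and 0.38 without DZNep, so the sign depended on the DZNep group.

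The partner proteins of the class I enzymes were described by 5 lists of complex subunits (Sin3, NuRD, CoREST, NCoR, MiDAC with MIER), of which 45 genes were tested. After DZNep 3 rose and 9 fell against NC, where 10.7% of all genes rose and 12.8% fell, with a median log2 change of -0.17. The CoREST list, which pairs Hdac1 and Hdac2 with the demethylase Kdm1a, had a median log2 change of -0.33 over 9 genes. None of them passed with a higher value, and Hmg20b, Phf21a, Zmym2 and Zmym3 were among those that fell. Zmym3, a zinc finger subunit, had 2406 and 2242 in NC and 1116 and 1201 after DZNep (2.01-fold lower, with an SE of 0.18 log2 units, adjusted p = 0.0017, limma). That value is at the 2-fold limit, and it was -0.95 log2 units without NC replicate 1 or without DZNep replicate 1. In NuRD, Mta1 (6168 and 4765 in NC, 3033 and 2668 after DZNep) and Mta3 (4794 and 4818, then 2209 and 3007) fell, 2 of 10 genes.

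In NCoR, the scaffold of Hdac3, 2 of 5 genes fell, where 12.8% of all genes did, while Hdac3 itself rose. They were Tbl1x (5399 and 5260 in NC, 2571 and 2790 after DZNep) and Gps2 (939 and 999, then 803 and 569). In Sin3, 2 of 16 genes rose, a share close to the 10.7% of all genes that did. They were Sap18 (330 and 360 in NC, 540 and 634 after DZNep) and Sap30l (1256 and 1160, then 1655 and 2176). Dnttip1, the scaffold of MiDAC, rose from 1134 and 1082 to 1638 and 1998. With Valproate 4 of the 45 subunits fell, Mta3, Zmym3 and Tbl1x among them, where 5.18% of all genes did, and none rose. Mta3, Zmym3 and Tbl1x also fell after DZNep, but both comparisons share the NC libraries. Bromosporine gave 1 higher (Chd3) and 1 lower subunit, where 5.4% of all genes passed, MS023 gave 1 higher (Sap18), where 2.21% passed, and for 6 other compounds 0 passed.

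Among 10 partners of class IIa enzymes (MEF2 factors and 14-3-3 proteins), Mef2b was the single one that passed after DZNep, where 23.6% of all genes did, and after Valproate, where 10.3% did. Mef2b had 922 and 365 in NC, 42 and 79 after DZNep (-3.31 ± 0.65, SE, adjusted p = 0.00265, limma) and 115 and 39 with Valproate (-3.09 ± 0.65, adjusted p = 0.0089). The 2 NC libraries differed by more than 2-fold from each other. Without NC replicate 1 the Valproate change was -2.43 and did not pass (adjusted p = 0.0995), and without Valproate replicate 2 it was -2.32 (adjusted p = 0.0759). The DZNep change passed in all 4 fits that left out 1 library.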

How the data were processed

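The deposited table holds scores, here gene-level expression values that the authors normalized and rounded to whole numbers, for 22 libraries of mouse E14 embryonic stem cells. Per the labels, polyadenylated RNA was captured on oligo-dT beads, and the submitters' processing notes name bcl2fastq, Bowtie2 2.2.5, RSEM and the mm10 build. The study's methods describe normalization with EDASeq at its full setting. They do not mention the compounds and were taken to cover these libraries. Library totals were 38403767 to 38419709 and the median was 409 in all, as full-quantile normalization leaves them, which hides depth and any change shared by most genes. Totals therefore give no depth, and precision rests on the spread between libraries. The authors' second table of group means differed by at most 0 and was not used. Groups and replicate numbers came from titles and treatment labels. All columns matched a sample.

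Values were analysed as log2(value + 1) with limma 3.58.1 in R 4.3.3, on genes with at least 10 in at least 2 libraries (17275 of 18487, all 10 members included). One fit with 11 group means (lmFit, eBayes with trend, 11 residual degrees of freedom) gave each compound against NC, the F test, and Valproate against the mean of CPTH2 and Garcinol. P-values are two-sided and Benjamini-Hochberg adjusted within each comparison over all tested genes. "Passed" means an adjusted p under 0.05, and a 2-fold threshold was added where stated. In counts of genes, those that rose or fell are those that passed with a higher or lower value. The fit was tested on simulated data. A count test was not used because the values are not raw counts. The 10 members were all named. Of partner lists, the 3 largest changes per compound past both thresholds were named where the larger group mean was at least 100. For members passing the F test, up to 3 most similar genes were named. Results of some genes are not reported here. Subunits in counts of a few and marker genes were named after their values were seen. The members and lists were chosen with earlier results of these data known. Lengths and positions came from GENCODE M21, promoters from RefSeq (GRCm38.p6), and shared sequence was counted as 31-base words of transcripts. Alternatives changed the pseudocount, filter, scaling, libraries in the fit, replicate block, reference and adjustment, or left out 1 library.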

Additional observations from a re-analysis of the deposited data

How the results depend on the processing

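No result reversed. Of the changes of single genes under the alternatives, 157 kept their call and 64 no longer had an adjusted p under 0.05. The other 12, all of Zmym3, kept it but fell short of 2-fold. Here that limit was applied to genes named from the partner lists and not to members, so the 157 include Hdac2 below 2-fold. Its log2 change was 0.92 without DZNep replicate 1, and 0.81 when all groups besides DZNep served as the reference. Against Bromosporine, Chaetocin, Garcinol, IOX1, MS023, OICR and Valproate it was 0.70 to 0.85. Against CPTH2 it stayed over 2-fold (1.04). The count of members passing for DZNep against NC, 7, was 2 when only the libraries of the 2 groups were fitted, 2 with adjustment over all 10 contrasts, and 2 to 4 when 1 library was left out, where fewer samples enter the fit. Chosen after seeing the data, it was 4 against MS023, 3 against OICR and 4 against UNC0379 in place of NC (22.9%, 16% and 19.5% of all genes), and the cause was not tested. It was 5 with a pseudocount of 10 (without Hdac9 and Hdac11), 5 with no filter (without Hdac7 and Hdac11) and 6 with median-ratio rescaling (without Hdac11). For Valproate against NC, 0 members became 1 when the mean of the other 10 groups was the reference, and 0 to 1 without 1 library. For Valproate against CPTH2 and Garcinol, 1 member became 0 with median-ratio rescaling, 0 when only these groups were fitted, and 0 to 1 without 1 library. For the F test, 3 members became 1 with median-ratio rescaling and 1 to 4 without 1 library. The Hdac2 share of class I, 32.7% in NC and 53.7% after DZNep, was 23.3% and 42.1% per kilobase. That the depth of each library is not known limits what can be said of Hdac9, at 0 to 39.

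The replicate numbers were not treated as pairs. Deviations from group means correlated between same-numbered libraries by 0.0535 to 0.298 (median 0.196) over 55 pairs of groups, with 51 above 0.1, and 20 of 22 libraries correlated best with their own number, a hint from the data and not from the design. With the replicate block, 9 members passed for DZNep against NC (Hdac4 and Hdac8 were added), 2 for Valproate against NC (Hdac4 and Hdac11), 3 for Valproate against CPTH2 and Garcinol (Hdac7 and Hdac11 were added), 1 for Bromosporine against NC (Hdac8) and 9 in the F test. The share of all genes passing under the block was 43% for DZNep, 26.7% for Valproate and 16.5% for Bromosporine against NC. It was 35% for Valproate against CPTH2 and Garcinol and 65.9% for the F test. Under the block, Hdac7 and Hdac11 had adjusted p = 4.99e-05 and 7.79e-04 for DZNep against NC (limma).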

Other observations

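Of 7 genes listed as known to rise with deacetylase inhibitors, 2 rose with Valproate against NC (limma), where 5.13% of all genes rose. Clu, a secreted chaperone, had 30 and 66 in NC and 261 and 289 with Valproate, which is 2.60 ± 0.31 log2 units higher (SE, adjusted p = 2.57e-04). Cdkn1a, the cell cycle inhibitor p21, had 6054 and 5364 in NC and 8038 and 7963 with Valproate (0.49 ± 0.10, adjusted p = 0.00793). The log2 changes of the others did not pass: -0.48 for Gadd45b (1518 and 1231 in NC, 1099 and 878 with Valproate), -0.33 for Tgfbr2, -0.20 for the linker histone H1f0, 0.25 for Tubb3 and 0.93 for Cdkn1c (56 and 82 in NC, 143 and 119 with Valproate, adjusted p = 0.0648). After DZNep, Cdkn1c alone of this list passed with a higher value, where 10.7% of all genes did. This gene, another cell cycle inhibitor and imprinted, went from 56 and 82 in NC to 354 and 456 (2.55 ± 0.30, adjusted p = 7.16e-05, limma).

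Among the 7 sirtuins, the NAD-dependent class III deacetylases, Sirt6 alone passed with Valproate, where 5.13% of all genes rose. It went from 1432 and 1439 in NC to 1801 and 1787 (0.32 ± 0.09, adjusted p = 0.0381, limma). None passed after DZNep, where 23.6% of all genes did. Sirt1 had 897 and 914 in NC and 2053 and 872 after DZNep, so its DZNep libraries differed by more than 2-fold. Hdac10, the other class IIb gene, is in the table and was not one of the 10 genes described. It had 319 and 315 in NC and 353 and 306 after DZNep and passed in no comparison.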
